A study of Canis lupus familiaris with 31 samples.

Results

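The proteasome rows of a whole blood RNA-seq count table from Miniature Schnauzers were examined in cases with high fasting blood triglycerides (HTG) and in controls. Every row whose symbol starts with PSMA, PSMB, PSMC, PSMD, PSME, PSMF or PSMG was taken, which gave 42 of 32704 rows. Of these, 41 passed the filter on low counts and were tested among 13918 genes. The row left out was PSMA8, an alpha subunit known from testis, with 0 to 1 counts per dog. The rule also took PSMC3IP, a meiotic recombination cofactor that carries a proteasome symbol but is not a subunit. No row carried the symbols PSMA1, PSMA2, PSMA4, PSMC3, PSMC6, PSMD5 or PSMG4, and these were not analysed here.

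The proteasome is the protease that degrades ubiquitin-tagged proteins in every cell. Its barrel-shaped 20S core is built of rings of alpha subunits (PSMA genes) and beta subunits (PSMB genes), and its 19S cap, built of ATPases (PSMC genes) and non-ATPases (PSMD genes), binds, unfolds and feeds in the substrate. White blood cells also make the immunoproteasome, in which PSMB8, PSMB9 and PSMB10 take the places of the catalytic subunits PSMB5, PSMB6 and PSMB7, and which cuts peptides for MHC class I molecules. Maturing red blood cells use ubiquitin and the proteasome to clear proteins while they remodel.

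Libraries came from 31 pet dogs of 1 breed, 13 cases (8 males and 5 females) and 18 controls (10 males and 8 females), with 1 library per dog. Cases had fasting serum triglycerides above the limit that the study set for HTG, controls were at or below a lower limit, and dogs between these limits were not enrolled. All dogs were older than a minimum age set at recruitment, none took medication known to alter lipids, and cases had been screened for secondary causes of hyperlipidemia. The dogs were client-owned, with no standard diet or housing, and whole blood mixes red cell precursors, platelets and all white cells, so a lower level in fewer cells of a type cannot be told apart from less RNA per cell.

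Total counts ran from 14524659 to 41533599 per dog. The 10 dogs (5 cases, 5 controls) with the highest mean level over 366 small non-coding RNA rows, at least 1.66 on the log2 CPM scale against at most 1.40 in the 21 other dogs, are called the high-small-RNA dogs here, and the labels do not say what sets them apart. CPM, counts scaled to a common library size, are compared only within a gene, apart from the marker sums that follow. Erythroid markers (10 of 12 listed genes tested, among them ALAS2, AHSP and KLF1) summed to 970 CPM in the lowest case, 3880 in the median case and 18404 in the highest, and to 774, 1766 and 28697 CPM in controls. ALAS2 alone had a median of 2913 CPM in cases and 1237 in controls and reached 24514 CPM, so it makes up a large part of these sums. The highest erythroid scores, the mean centred log2 CPM of the 10 markers, were those of control_03 (2.61) and case_01 (2.56). Another library stood apart among the proteasome rows themselves: control_09 held the highest value of 11 of the 41 rows and the lowest of 3. Values without these dogs are given for a part of the results that they change, so a value printed alone need not be steady.

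No proteasome gene differed between cases and controls after adjustment. With edgeR's quasi-likelihood test, 0 of 41 members passed an adjusted P of 0.05 over all genes tested, and 5 genes of the whole table (0.0359%) did. DESeq2 and limma-voom also called 0 members. At an unadjusted P under 0.05, 1 member passed in edgeR (2.44%), beside 9.81% of all genes tested (5.04% higher and 4.76% lower in cases), with 1 in DESeq2 (10.5% of all genes) and 3 in limma-voom (11.2%). The members split evenly, with 21 higher in cases and 20 lower, and their median log2 fold change of 0.0074 lay beside −0.016 over all genes. That median turned to −0.030 without case_01 and control_03, −0.013 with upper quartile scaling and −0.052 in the high-small-RNA dogs. The medians over all genes were then −0.017, −0.032 and −0.031. In the 21 other dogs the members' median was 0.051, beside −0.0074. The 95% interval of the difference lay within 0.5 log2 units of 0 for 36 of 41 members and for 62.9% of all genes tested.

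**Figure D1:**
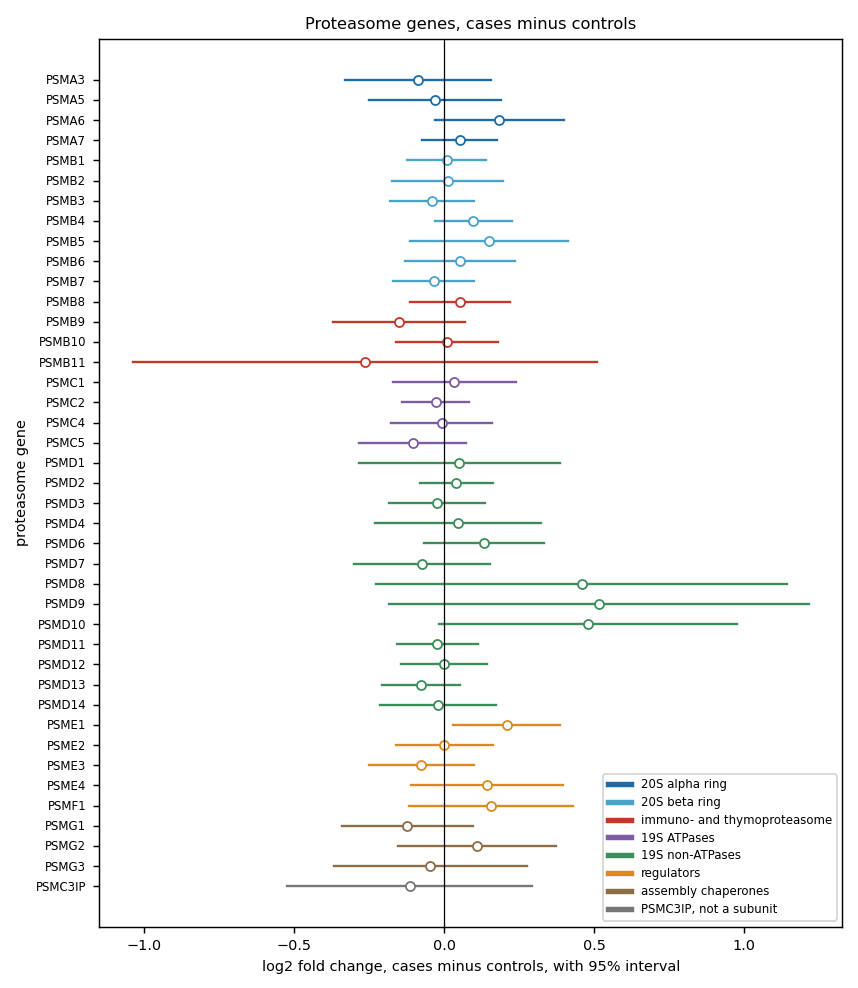
Log2 fold change of each of the 41 tested proteasome rows, cases (n = 13) minus controls (n = 18), as a point with its 95% interval from edgeR, coloured by place in the complex. Open points did not pass an adjusted P of 0.05, which holds for all 41. The interval of PSME1 is the only one that leaves out 0, and those of PSMD8, PSMD9, PSMD10 and PSMB11 are the widest.

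The alpha ring closes the 20S core and gates it. PSMA3, PSMA5, PSMA6 and PSMA7 were tested, with log2 fold changes from −0.088 to 0.18. PSMA6 had one of the 5 smallest P-values among the members. It ran from 14.6 to 36.2 CPM in cases (median 20.1) and from 14.4 to 27.4 CPM in controls (median 18.5), and 10 of 13 cases lay above the median control. Its log2 fold change was 0.18 ± 0.11 (SE; edgeR, P = 0.0916, adjusted P = 0.602). The highest value was that of case_01, and without case_01 and control_03 the log2 fold change was 0.079 ± 0.091 (SE). With the platelet score as a covariate it was 0.33, and PSMA6 had an unadjusted P under 0.05 there, with the small RNA covariate and without control_09, but did not pass adjustment in any of these.

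The beta ring carries the active sites. All 7 constitutive beta genes were measured, 5 of them higher in cases, and their log2 fold changes lay between −0.042 and 0.15. PSMB5, the chymotrypsin-like subunit, ran from 16.8 to 49.1 CPM in cases (median 18.3) and from 14.4 to 32.1 CPM in controls (median 18.3). The case at 49.1 CPM was case_01, and no other dog exceeded 32.1 CPM. The log2 fold change of PSMB5 was 0.15 ± 0.13 (SE) with all dogs and −0.037 ± 0.088 without case_01 and control_03. It was 0.0024 with the erythroid score as a covariate and 0.29 with the platelet score. PSMB6, the caspase-like subunit, had a median of 18.9 CPM in cases (range 13.1 to 23.3) and 18.3 CPM in controls (12.2 to 24.8). PSMB7, the trypsin-like subunit, had 23.6 CPM (20.6 to 29.0) and 24.3 CPM (19.1 to 30.2). Neither difference exceeded the spread between dogs (edgeR, adjusted P = 0.898 and 0.903). For PSMB6 the log2 fold change was 0.20 ± 0.092 (SE) in the 21 other dogs, where it was one of 5 members with an unadjusted P under 0.05 and did not pass adjustment, and −0.25 ± 0.18 in the high-small-RNA dogs. PSMB4, a structural beta subunit, was among the members with the smallest P-values, with 32.4 CPM in the median case (28.2 to 37.1) and 31.2 in the median control (18.3 to 36.2). The low control was control_09, and the log2 fold change of 0.096 ± 0.063 (SE) became 0.064 ± 0.045 without it (edgeR, adjusted P = 0.647 and 0.641).

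The immunoproteasome subunits did not differ between the groups beyond their spread. PSMB8 had a median of 61.0 CPM in cases (43.1 to 72.8) and 58.4 CPM in controls (37.4 to 80.0), a log2 fold change of 0.053 ± 0.082 (SE; 95% interval −0.11 to 0.22). It was 0.13 with the erythroid score as a covariate and 0.19 with the platelet score. With the platelet score 4 members, PSMA6, PSMA7, PSMB8 and PSMC1, had an unadjusted P under 0.05 in edgeR and none passed adjustment. PSMB10 had 39.3 CPM (32.1 to 42.1) and 37.9 CPM (26.4 to 54.5), a log2 fold change of 0.0079 ± 0.084 (SE; −0.16 to 0.18). The log2 fold change of PSMB10 turned to −0.030 ± 0.082 without case_01 and control_03 and to −0.013 with upper quartile scaling. The cases sat inside the range of the controls for both genes. PSMB9 had 50.4 CPM (40.5 to 63.6) and 55.3 CPM (41.2 to 121.9), a log2 fold change of −0.15 ± 0.11 (SE; edgeR, adjusted P = 0.677). The control at 121.9 CPM was control_09, and without it the log2 fold change of PSMB9 was −0.054 ± 0.071 (SE). With the platelet score as a covariate it turned to 0.040. PSMB11, which replaces PSMB5 in the thymus, was at the edge of detection with 1 to 39 counts per dog, and its interval ran from −1.04 to 0.51.

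**Figure D2:**
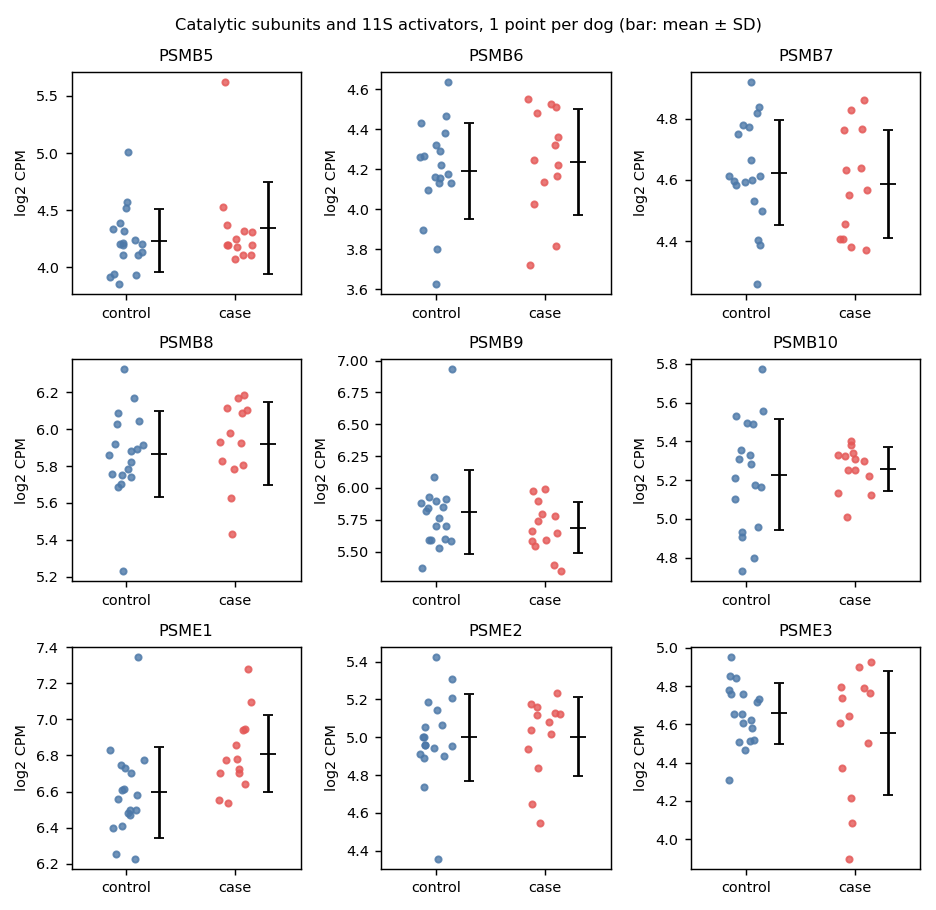
Log2 CPM of the constitutive catalytic subunits (PSMB5, PSMB6, PSMB7), their immunoproteasome counterparts (PSMB8, PSMB9, PSMB10) and the 11S activators (PSME1, PSME2, PSME3), with 1 point per dog and the mean ± SD of each group beside it (controls blue, n = 18; cases red, n = 13). The groups overlap in every panel, and the single points far above the rest are case_01 in PSMB5 and control_09 in PSMB9.

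The exchange of immunoproteasome for constitutive subunits was also read as a ratio within each dog, where the library scaling cancels. The log2 ratio of PSMB8 to PSMB5 was 1.58 ± 0.43 (SD, n = 13) in cases and 1.63 ± 0.27 (SD, n = 18) in controls. The ratio of PSMB9 to PSMB6 was 1.45 ± 0.35 and 1.62 ± 0.41, and that of PSMB10 to PSMB7 was 0.67 ± 0.19 and 0.60 ± 0.36. None of these differences exceeded the spread (two-sided permutation test, P = 0.701, 0.237 and 0.551, adjusted over 4 ratios P = 0.701, 0.474 and 0.701). The ratio of PSME1, an interferon-inducible activator, to PSME3, its nuclear relative, was 2.25 ± 0.35 in cases and 1.94 ± 0.31 in controls (permutation test, P = 0.014, adjusted P = 0.056). Without case_01 and control_03 the difference in this ratio was 0.35 log2 units (permutation test, adjusted P = 0.0122), so that call turns on these dogs. The PSMB8/PSMB5 difference, cases minus controls, turned from −0.054 to 0.032 without them (permutation test, adjusted P = 0.729). Among the 10 high-small-RNA dogs cases exceeded controls in PSME1/PSME3 by 0.39 (adjusted over 4 ratios P = 0.561, exact permutation test). The 21 others gave 0.24 (adjusted P = 0.0944, exact permutation test). The PSMB9/PSMB6 difference was 0.25 in the former dogs and −0.34 in the latter (exact permutation tests, adjusted P = 0.561 and 0.0944), so its sign was not the same on both sides.

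The regulators sit on the ends of the 20S core. PSME1 and PSME2 form the interferon-inducible 11S ring, PSME3 a nuclear one, PSME4 is the PA200 activator, and PSMF1 is a proteasome inhibitor. PSME1 had the smallest P-value of all members. It ran from 93.0 to 155.2 CPM in cases (median 109.4) and from 74.9 to 162.7 CPM in controls (median 94.8), and 11 of 13 cases lay above the median control. The log2 fold change was 0.21 ± 0.088 (SE; 95% interval 0.029 to 0.39), and the test of all genes gave P = 0.0244 and an adjusted P of 0.415 (edgeR). With the erythroid score as a covariate it was 0.094 ± 0.066, and the log2 fold change was 0.031 ± 0.18 in the high-small-RNA dogs and 0.30 ± 0.089 in the 21 others. For its ring partner PSME2 the log2 fold change was −0.00060 ± 0.079 (SE; 95% interval −0.16 to 0.16). PSME2 had 33.8 CPM in the median case (23.2 to 37.5) and 31.5 CPM in the median control (20.4 to 42.9). PSME3 had 24.9 CPM (14.8 to 30.4) and 25.1 CPM (19.7 to 30.9), PSME4 had 141.8 CPM (112.3 to 272.2) and 130.9 CPM (101.2 to 262.7), and PSMF1 had 35.5 CPM (28.9 to 53.2) and 31.5 CPM (24.8 to 86.3). The log2 fold changes of these 3 were −0.077, 0.14 and 0.15, with adjusted P of 0.818, 0.751 and 0.751 (edgeR). The highest PSMF1 value was that of control_03, and without it and case_01 the log2 fold change of PSMF1 was 0.23 ± 0.083 (SE; edgeR, P = 0.00906, adjusted P = 0.203). The signs of PSME4 and PSMF1 turned in 3 of 15 alternatives each: to −0.061 and −0.029 with the erythroid score as a covariate, to −0.026 and −0.0089 with the platelet score, and to −0.0031 and −0.16 in the high-small-RNA dogs. PSME3 turned to 0.033 with the platelet score and to 0.051 in the 21 other dogs. The sign of PSME2 turned in 7 of 15 alternatives, over which it ran from −0.049 to 0.095.

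The 19S cap held both the steadiest and the most variable members. Among the ATPases, PSMC2 had the smallest spread over dogs of all members, 0.14 log2 units (SD within groups), followed by PSMD2 and PSMA7 at 0.16 each. PSMC2 ran from 23.7 to 33.2 CPM in cases (median 29.0) and from 24.1 to 33.6 in controls (median 28.2). The 4 ATPases tested lay between −0.11 and 0.032 in log2 fold change. Of the 13 PSMD rows, PSMD8 had the largest spread of all members, 0.92 log2 units, followed by PSMB11 (0.91) and PSMD9 (0.87). The median spread was 0.26 over the members and 0.36 over all genes tested.

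PSMD8, a lid subunit, ran from 54.4 to 421.7 CPM in cases (median 153.0) and from 54.2 to 711.8 CPM in controls (median 97.2). PSMD9 and PSMD10, which are chaperones of 19S assembly rather than subunits of the finished cap, ran from 46.7 to 320.1 CPM (median 102.5) and from 8.86 to 56.3 CPM (median 10.8) in cases. In controls PSMD9 ran from 36.5 to 485.6 CPM (median 50.6) and PSMD10 from 7.40 to 37.4 CPM (median 9.81). In all 3 genes 11 of 13 cases lay above the median control. The log2 fold changes were 0.46 ± 0.34, 0.51 ± 0.34 and 0.48 ± 0.24 (SE), and none passed the test (edgeR, adjusted P = 0.690, 0.652 and 0.537). In DESeq2 the log2 fold change of PSMD10 was 0.11 (adjusted P = 0.889), a fit in which the tool replaced the 943 counts of case_01 by 174 as an outlier. Without case_01 and control_03 they were 0.68 ± 0.26, 0.76 ± 0.22 and 0.32 ± 0.11 (edgeR, adjusted P = 0.229, 0.123 and 0.184). With the erythroid score as a covariate they were −0.014 ± 0.14, 0.056 ± 0.13 and 0.020 ± 0.14. With the platelet score instead, PSMD9 was at 0.16 and PSMD10 at 0.26 (edgeR, adjusted P = 0.959 and 0.912). The 3 log2 fold changes were 0.017 ± 0.58, −0.072 ± 0.64 and −0.22 ± 0.41 in the high-small-RNA dogs and 0.67 ± 0.36, 0.83 ± 0.33 and 0.82 ± 0.27 in the 21 others, and the difference between the sides was not tested. Of the 10 erythroid markers tested, 9 were higher in cases, 0 of them at an unadjusted P under 0.05, and the score was 0.44 ± 1.03 (SD) in cases and −0.32 ± 1.14 in controls (permutation test, P = 0.0686, adjusted over 8 marker lists P = 0.137).

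The assembly chaperones PSMG1, PSMG2 and PSMG3, which help build the alpha ring, had 18 to 351 counts per dog over the 3 genes. Their log2 fold changes lay between −0.12 and 0.11.

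Genes around the proteasome were counted in the same way. Of 24 genes that tag, carry or process proteasome substrates or control proteasome genes, 21 were tested, 14 were higher in cases and 0 passed adjustment with edgeR. At an unadjusted P under 0.05, 0 were higher and 1 was lower, beside 5.04% and 4.76% of all genes. The lower one was NGLY1, the deglycosylase that processes NFE2L1 (log2 fold change −0.21 ± 0.076, P = 0.0105, adjusted P = 0.336). Of 17 genes of class I antigen presentation 14 were tested, 10 were higher in cases and 0 passed adjustment. The 3 with an unadjusted P under 0.05, beside 9.81% of all genes in either direction and 5.04% higher in cases, were all higher in cases: the peptide-loading factor TAPBP (0.17 ± 0.068, P = 0.0176), the class I light chain B2M (0.22 ± 0.098, P = 0.0325) and the class I heavy chain DLA-12 (0.18 ± 0.081, P = 0.0315). Their adjusted P-values with edgeR were 0.365, 0.452 and 0.451. After leaving out case_01 and control_03, TAPBP and B2M had an unadjusted P under 0.05 and DLA-12 did not (0.16 ± 0.084, P = 0.0665, adjusted P = 0.426, edgeR), and 3 partner genes were then higher and 1 lower at that level, beside 7.48% and 5.55% of all genes.

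Sex was compared in the same table. With group in the fit, 0 members passed adjustment between females and males with edgeR, DESeq2 or limma-voom, and 17 genes of the table did with edgeR (0.122%). At an unadjusted P under 0.05, 3 members were lower in females (7.32%) and 0 higher, beside 4.89% of all genes (3.29% lower and 1.6% higher). Over all genes 14 of the 17 calls were higher in females (0.101%) and 3 lower (0.0216%). The 3 members with an unadjusted P under 0.05, none of which passed adjustment, were the cap subunits PSMD2 (log2 difference −0.12 ± 0.057 SE) and PSMD13 (−0.15 ± 0.060) and the chaperone PSMG1 (−0.22 ± 0.10), each with an adjusted P of 0.959 in edgeR.

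The difference of the case effect between the sexes was tested as an interaction. In edgeR 0 members and 0 genes passed adjustment (0%), and 2 members (4.88%) had an unadjusted P under 0.05, beside 3.93% of all genes (3.02% up and 0.905% down). PSMD10 was higher in female cases than in female controls by 1.23 log2 units and lower in male cases by −0.15, a difference of 1.39 ± 0.44 (SE; P = 0.00365, adjusted P = 1.00, edgeR). PSMD9 differed by 1.49 ± 0.67 (P = 0.0328). The female case_01 held the highest PSMD10 value of all dogs. Without case_01 and control_03 the interaction of PSMD10 was 0.38 ± 0.22 (P = 0.0911) and that of PSMD9 was 0.36 ± 0.43 (P = 0.410; edgeR), while PSMB11 (−1.72 ± 0.63, P = 0.0108, at 1 to 39 counts per dog) and PSMD12 (−0.30 ± 0.13, P = 0.0281) then had unadjusted P under 0.05 with the opposite sign.

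The high-small-RNA dogs had lower levels of several core and cap genes. With group in the fit, 7 of 41 members passed adjustment, all of them lower in the 10 dogs (17.1%), beside 7.57% of all genes called in either direction, 3.02% called lower and 4.54% called higher. From the alpha ring came PSMA5, PSMA6 and PSMA7, from the ATPases PSMC1 and PSMC5, and the others were the immunoproteasome subunit PSMB8 and the activator PSME3. PSMA6 had a median of 15.2 CPM in the 10 dogs and 19.5 CPM in the 21 others (log2 difference −0.43 ± 0.089, adjusted P = 0.0014, edgeR). PSMB8 had 53.5 and 61.0 CPM (−0.29 ± 0.073, adjusted P = 0.0116, edgeR), and PSMC1 had 17.0 and 22.3 CPM (−0.33 ± 0.093, adjusted P = 0.0211, edgeR). The others differed by −0.35 (PSMA5), −0.29 (PSMC5), −0.28 (PSME3) and −0.19 (PSMA7). Without case_01 and control_03, 2 members passed (4.88%), PSMA6 and PSMC5, both lower, beside 5.34% of all genes in either direction and 1.8% lower. With the erythroid score in the fit 8 did, beside 8.18%. Of the 8 marker scores, the platelet score (10 of 12 markers tested) differed between the sides, at 0.43 ± 0.43 (SD, n = 10) against −0.21 ± 0.52 (SD, n = 21; permutation test, P = 0.0023, adjusted over 8 lists P = 0.0184). The means were 0.26 and −0.12 for the erythroid score, 0.085 and −0.041 for the neutrophil, −0.15 and 0.071 for the T cell, −0.013 and 0.0064 for the B cell, −0.22 and 0.10 for the cytotoxic, −0.061 and 0.029 for the monocyte and −0.013 and 0.0064 for the interferon response score, and none of these 7 differences passed (adjusted P from 0.42 to 0.945, permutation tests). Each side held cases and controls, and the part of platelets or of the other cell types in these differences was not tested.

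The largest pattern across dogs followed the erythroid markers. In an edgeR fit of every gene on group and erythroid score, 20 of 41 members had a slope past an adjusted P of 0.05 (48.8%), beside 30.2% of all genes tested. Of these 11 rose with the score (26.8%), beside 16% of all genes, and 9 fell (22%), beside 14.2% of all genes. The score and the members come from the same libraries and share their depth and scaling, and whether red cell precursors carry these transcripts was not tested. With upper quartile scaling, 10 members rose and 14 fell, and the calls over all genes moved from 16% up and 14.2% down to 11.5% up and 23.4% down.

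**Figure D3:**
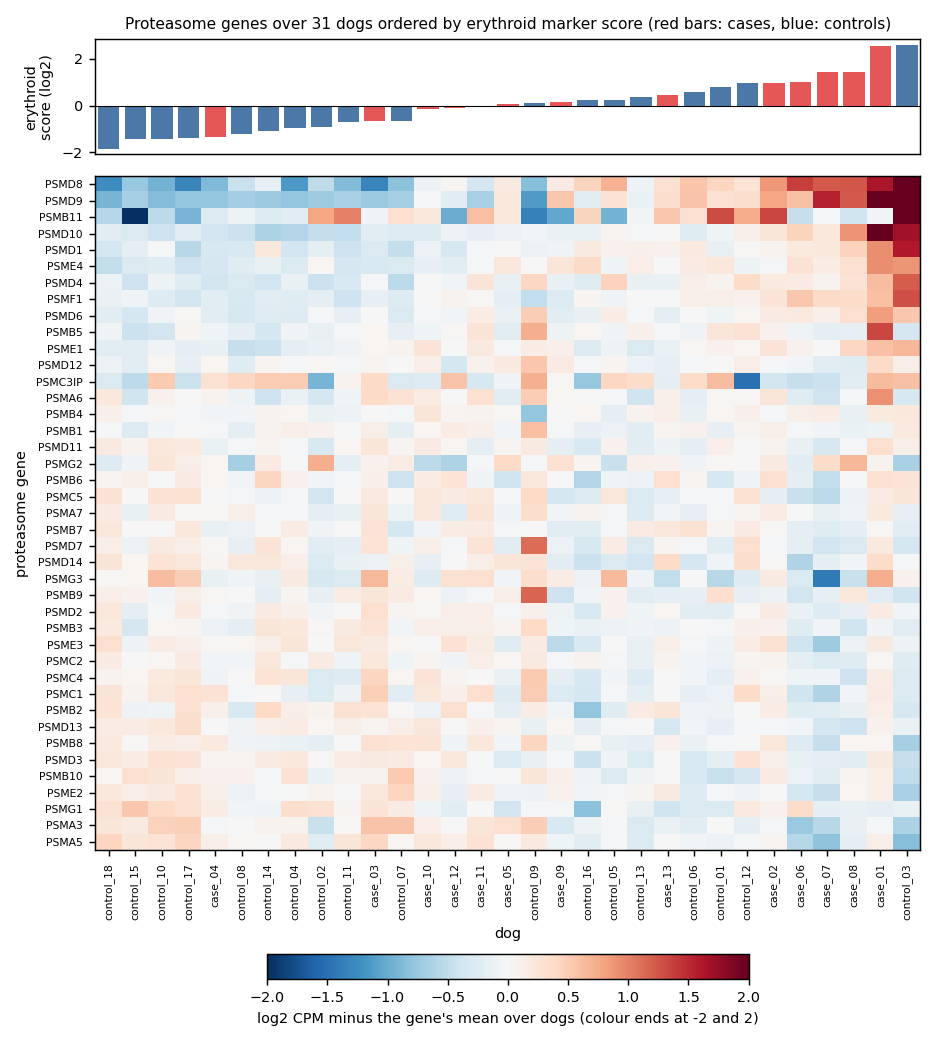
Log2 CPM of the 41 tested proteasome rows in 31 dogs, each row centred on its mean, with dogs in order of their erythroid marker score (bars above, red for cases and blue for controls) and rows in order of their slope on that score. PSMD8, PSMD9 and PSMD10 move from blue to red across the dogs, PSMA3, PSMA5 and PSMG1 move faintly the other way, and control_09 stands out in PSMB9 and PSMD7.

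The members that rose included 6 of 13 PSMD rows, namely the cap subunits PSMD1, PSMD4, PSMD6 and PSMD8 and the chaperones PSMD9 and PSMD10, 0 of 4 cap ATPases, and 3 of 5 regulators, namely PSME1, PSME4 and PSMF1, with PSMB5 and the barely detected PSMB11. PSMD8 rose by 0.76 ± 0.058 log2 units per unit of score, and its correlation with the score over 31 dogs was r = 0.91 and rho = 0.90 (permutation P = 1e-05 for each, the smallest these permutations can give, adjusted over all genes tested P = 0.000165 and 0.000204). The same P-values held for PSMD9, PSMD10, PSME4 and PSMF1. PSMD9 rose by 0.74 ± 0.051 (r = 0.91, rho = 0.89). PSMD10 rose by 0.48 ± 0.053 (r = 0.83, rho = 0.87), the PA200 gene PSME4 by 0.27 ± 0.028 (r = 0.87, rho = 0.83), and the inhibitor PSMF1 by 0.27 ± 0.034 (r = 0.82, rho = 0.77). The ubiquitin receptor PSMD4 rose by 0.27 ± 0.036 and the scaffold subunit PSMD1 by 0.33 ± 0.038.

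The members that fell were spread over the core, the cap and the immunoproteasome. They were PSMA3 and PSMA5 of the alpha ring, PSMB8 and PSMB10, the ATPase PSMC2, PSMD3 and PSMD13 of the cap, the activator PSME2 and the chaperone PSMG1. PSMA5 fell by 0.18 log2 units per unit of score (r = −0.65, rho = −0.67, permutation test, adjusted over all genes P = 0.00118 and 0.000743), and PSME2 by 0.12 (r = −0.57, rho = −0.50, adjusted P = 0.00584 and 0.0223). The ring partners PSME1 and PSME2 thus had slopes of opposite sign, 0.16 ± 0.028 and −0.12 ± 0.032 (SE).

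**Figure D4:**
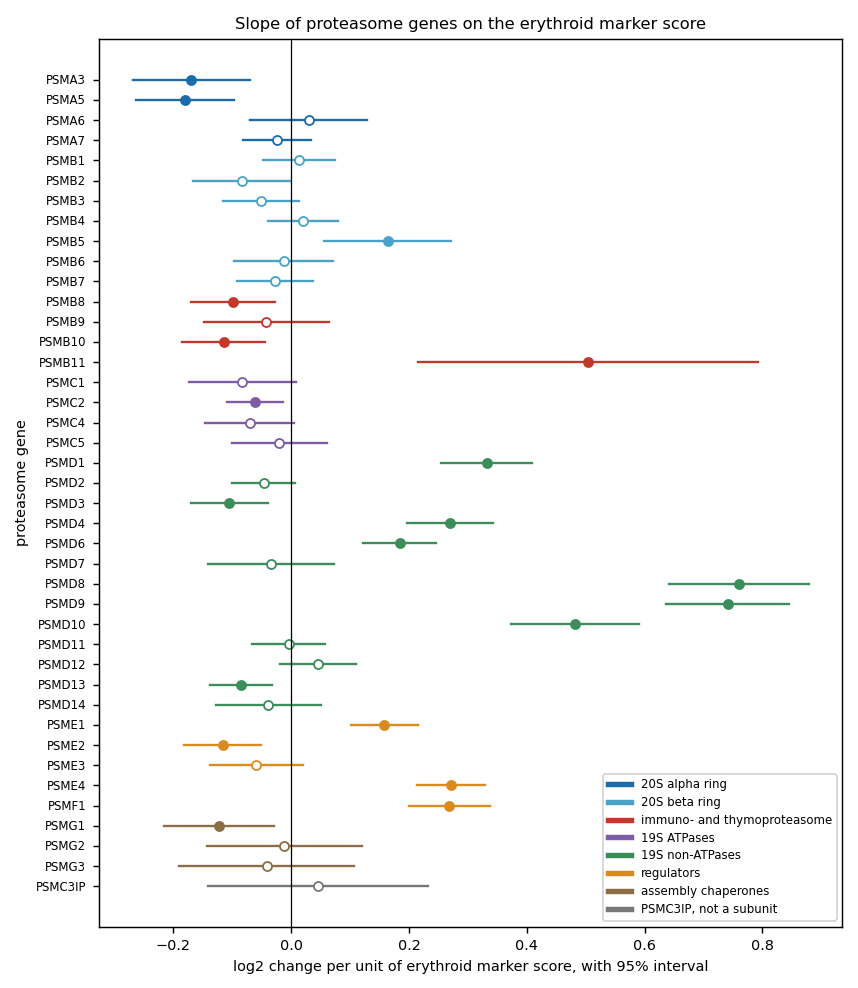
Slope of each of the 41 tested proteasome rows on the erythroid marker score, in log2 units per unit of score with the 95% interval from edgeR (31 dogs, group in the fit). Filled points passed an adjusted P of 0.05, 11 above 0 and 9 below, and PSMD8 and PSMD9 lie farthest to the right.

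The slopes were refitted in subsets of the dogs. Without the dogs with the highest scores, case_01 and control_03, 9 members rose and 7 fell, beside 11% and 8.27% of all genes (19.3% in all). The slope of PSMD8 was then 0.73, that of PSMD9 0.61 and that of PSMD10 0.25. Those of PSMD1, PSMD4, PSMD6, PSME1, PSME4 and PSMF1 were 0.19, 0.19, 0.13, 0.094, 0.21 and 0.17. PSMA5 and PSME2 stood at −0.21 and −0.12. In that fit the calls of PSMB5, PSMB8, PSMB11, PSMC2 and PSMG1 were lost, and PSMD2 was added among those that fell. The slopes whose calls were lost kept their signs, at 0.11, −0.082, 0.39, −0.073 and −0.16 in that order. With all dogs they were 0.16, −0.099, 0.50, −0.061 and −0.12. Within controls 9 rose and 6 fell, beside 12.4% and 8.74% of all genes (21.1% in all), and within cases 8 rose and 0 fell, beside 6.52% and 1.38% (7.9%). Within the high-small-RNA dogs 9 rose and 4 fell, beside 8.87% and 4.68% (13.5%), and within the 21 others 10 rose and 1 fell, PSMA5, beside 8.41% and 4.05% (12.5%). PSMD1, PSMD4, PSMD6, PSMD8, PSMD9, PSMD10, PSME4 and PSMF1 rose in each of these 5 subsets, which overlap. Only the first leaves out both case_01 and control_03. The cases and the 21 others hold case_01, and the controls and the high-small-RNA dogs hold control_03. Without case_01 and control_03 the correlation with the score was r = 0.88 for PSMD8, 0.87 for PSMD9 and 0.79 for PSMD10. Within the high-small-RNA dogs these were 0.95, 0.95 and 0.90, and within the 21 others 0.91, 0.90 and 0.80.

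**Figure D5:**
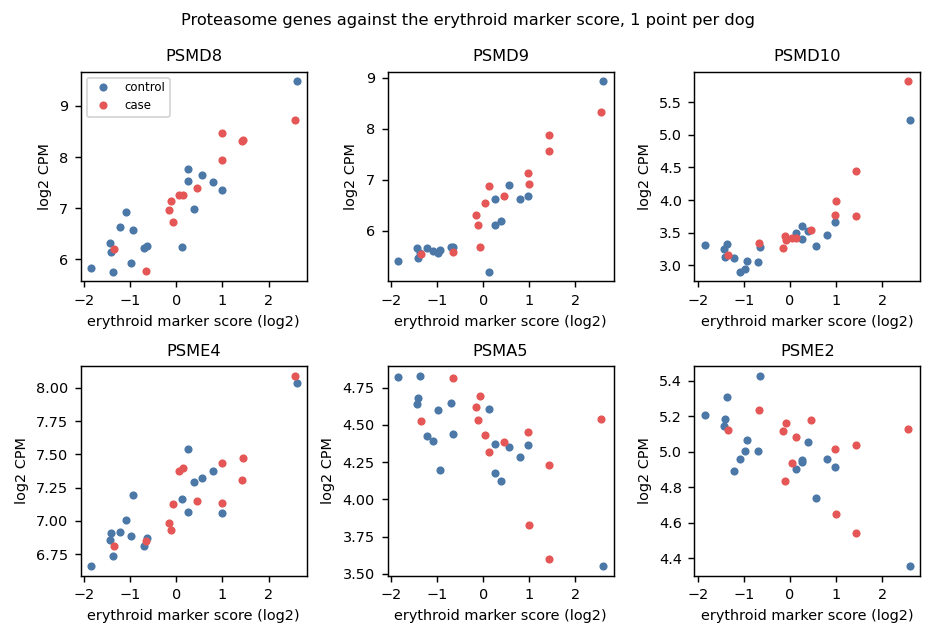
Log2 CPM of PSMD8, PSMD9, PSMD10, PSME4, PSMA5 and PSME2 against the erythroid marker score, with 1 point per dog (cases red, controls blue). The first 4 rise with the score in cases and in controls, and PSMA5 and PSME2 fall.

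Genes that work beside the proteasome had slopes on the score as well. Of 21 partner genes tested, 10 rose with the erythroid score and 2 fell, beside 16% and 14.2% of all genes. The proteasome-bound thioredoxin TXNL1 rose by 0.81 ± 0.057 log2 units per unit of score, the ubiquitin gene UBB by 0.76 ± 0.061 and the deubiquitinase USP14 by 0.63 ± 0.046. The proteasome activator ZFAND5 rose by 0.41 ± 0.049. UCHL5, the other deubiquitinase of the cap, fell by 0.16, and NFE2L1, a transcription factor of proteasome genes, fell by 0.071. UBB shares near-identical sequence with other genes, so its count is uncertain. Of 14 genes of class I antigen presentation, 1 rose (CANX) and 2 fell (TAP1 and ERAP2), beside the same shares of all genes. When case_01 and control_03 were left out, 8 partner genes rose and 3 fell, and 0 presentation genes rose and 2 fell, beside 11% and 8.27% of all genes. The slopes were then 0.72 ± 0.079 (SE) for TXNL1, 0.57 ± 0.074 for UBB, 0.60 ± 0.064 for USP14 and 0.24 ± 0.043 for ZFAND5, and CANX no longer passed (0.047 ± 0.045).

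Slopes on the other marker lists were fitted in the same way. On the neutrophil score 11 members rose (26.8%) and 0 fell, beside 13.1% and 6.88% of all genes (20% in all). On the T cell score 7 rose (17.1%) and 8 fell (19.5%), beside 16.5% and 18.4% (34.9%). On the platelet score 4 rose (9.76%) and 6 fell (14.6%), beside 8.41% and 5.58% (14%). On the cytotoxic score 0 rose and 1 fell (2.44%), beside 3.73% and 5.56% (9.29%). With case_01 and control_03 left out these counts were 5 and 0 on the neutrophil score (8.99% and 3.93% of all genes), 9 and 3 on the T cell score (15.3% and 15.3%), 0 and 4 on the platelet score (3.61% and 2.39%) and 0 and 1 on the cytotoxic score (2.35% and 5.18%). On the B cell, monocyte and interferon response scores 0 members passed with edgeR (1.12%, 0.323% and 0.359% of all genes called), while 9, 4 and 6 members had an unadjusted P under 0.05, beside 19.2%, 9.67% and 7.64% of all genes. The platelet score was higher in cases, at 0.33 ± 0.46 (SD) against −0.24 ± 0.54 (permutation test, P = 0.00397, adjusted over 8 lists P = 0.0318), as was the neutrophil score, at 0.40 ± 0.54 against −0.29 ± 0.73 (permutation test, P = 0.00879, adjusted P = 0.0352). The interferon response score was 0.30 ± 0.64 in cases and −0.22 ± 0.72 in controls (permutation test, P = 0.0504, adjusted P = 0.134), with 10 of 10 markers higher in cases. The T cell, B cell, cytotoxic and monocyte scores did not pass (permutation tests, adjusted P from 0.242 to 0.245). Of the 8 neutrophil markers tested 6 were higher in cases, 3 of them at an unadjusted P under 0.05, namely the granule genes CAMP (log2 fold change 1.61), MMP9 (1.05) and LTF (0.77), while the receptors CXCR2 (−0.021) and CSF3R (−0.018) were not, and 0 passed adjustment with edgeR. No member passed adjustment between cases and controls with the platelet score in the fit. The scores move together, so these counts are not independent of each other.

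The 820 pairs of members had a median correlation over dogs of r = 0.20, beside −0.0013 over all pairs of tested genes, and 283 of them were negative. These are descriptions over 31 dogs that share library depth and blood composition. The ATPases moved together most closely (median r = 0.62 over 6 pairs), as did the alpha ring (0.51 over 6 pairs), while the regulators did not (−0.14 over 10 pairs). The highest pair was PSMD8 with PSMD9 (r = 0.94) and the lowest was PSMD8 with PSMA5 (r = −0.77). Without case_01, control_03 and control_09 these were 0.91 and −0.78, while PSMB4 with PSMB9 moved from −0.76 to −0.26. The median over the 820 pairs was then 0.15, and 311 of them were negative.

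The pairs tested, 9 in all, were chosen by their place in the complex or shared control and taken over 31 dogs, with P-values adjusted over them. PSMB8 went with PSMB9 (r = 0.61, rho = 0.57, permutation P = 0.00087 for each, adjusted P = 0.00261 and 0.00264) and with PSMB10 (r = 0.64, rho = 0.62, permutation P = 6e-05 and 0.00023, adjusted P = 0.00054 and 0.00207). PSMC1 went with PSMC2 (r = 0.63, rho = 0.57, permutation P = 0.00017 and 0.00088, adjusted P = 0.000765 and 0.00264). Leaving out the 2 dogs farthest from the median of the first gene gave r = 0.60, 0.51 and 0.53. Within the high-small-RNA dogs r was 0.50, 0.89 and 0.66, and within the 21 others 0.50, 0.55 and 0.68.

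The constitutive PSMB5 did not go detectably with PSMB8 (r = 0.31, rho = 0.32) or PSMB6 (r = 0.17, rho = 0.087), nor did PSMD4 with PSMD11 (r = 0.27, rho = 0.26), with permutation P from 0.0777 to 0.645 and adjusted P of at least 0.14. On the high-small-RNA side and among the 21 others r was 0.13 and 0.15 for PSMB5 with PSMB8, −0.30 and 0.32 for PSMB5 with PSMB6, and 0.31 and 0.25 for PSMD4 with PSMD11. PSME1 with PSME2 gave r = −0.25 and rho = −0.093 (permutation P = 0.181 and 0.621, adjusted P = 0.233 and 0.645), with r = −0.73 in the high-small-RNA dogs (permutation P = 0.014, adjusted over the 9 pairs P = 0.042), 0.096 in the 21 others and −0.037 without case_01 and control_03. The high-small-RNA dogs include control_03, which held the highest PSME1 and the lowest PSME2 value of all dogs. The correlation on that side without control_03 was not computed. PSMB9 went with TAP1, the peptide transporter gene beside it on the chromosome in the RefSeq annotation of the UU_Cfam_GSD_1.0 assembly, by rank but not linearly (rho = 0.42, permutation P = 0.0186, adjusted P = 0.0418; r = −0.020, P = 0.904, adjusted P = 0.904). That difference rested on control_09, without which r was 0.55 (permutation P = 0.00175). PSMB9 with PSME2 gave r = 0.26 (rho = 0.30, permutation P = 0.147 and 0.0962, adjusted P = 0.221 and 0.144), and without control_09 r = 0.50 (permutation P = 0.0043), with 0.40 in the high-small-RNA dogs and 0.017 in the others. Within the high-small-RNA dogs PSMB9 and TAP1 gave r = 0.84, and within the 21 others, which include control_09, −0.44. In control_09 PSMB9 stood at 121.9 CPM and PSMD7 at 81.7 CPM, each the highest of all dogs, and PSMB4 at 18.3 CPM was the lowest.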

How the data were processed

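RNA from whole blood of 31 Miniature Schnauzers was sequenced after ribosomal RNA removal with a stranded total RNA kit, per the labels' library description and the study's methods. The labels' molecule field instead names polyA RNA, and the extraction kit they name is not the one in the methods; this bears on the small RNA rows and was not settled here. The authors checked reads with FastQC, trimmed them with Trimmomatic, aligned them with HISAT2 to Dog10K_Boxer_Tasha in the CHURP pipeline and counted a pair when both mates mapped; the deposited values are these raw counts. The counting program and annotation are not given in the sources used here. Ensembl identifiers and symbols came from the table, and all 42 members matched RefSeq names of UU_Cfam_GSD_1.0, where 5 overlap another protein-coding gene (PSMC1, PSMC3IP, PSMD1, PSME1 and PSME4); whether counting used strand is not given.

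Groups came from the sample titles. In R 4.3.3, edgeR 4.0.16 (TMM, filterByExpr by group, glmQLFit, glmQLFTest) compared cases with controls without covariate; sex, interaction, small RNA and marker score fits kept group. P-values were adjusted with Benjamini-Hochberg over 13918 genes at a threshold of 0.05. They measure the spread between dogs, 1 library each. CPM used TMM-scaled library sizes, log2 CPM a prior count of 2, and CPM is not corrected for gene length. SE is the log2 fold change divided by the square root of F. DESeq2 1.42.0 and limma 3.58.1 were alternatives. Permutation tests were two-sided with 100000 resamples, or exact with fewer than 10 dogs in a group, in Python 3.11.15 (numpy 2.4.6, scipy 1.17.1, pandas 2.3.3; figures with matplotlib 3.10.9). Scripts were tested on simulated data.

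The study had 10 pilot libraries (5 cases, 5 controls) and used batch as a covariate, but the labels do not name them. The 10 dogs with the highest mean log2 CPM over small non-coding RNA rows were therefore compared with the other 21. Dogs of the same number in each group were not treated as pairs.

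Members and lists were chosen with earlier results of these data known. Named genes were the catalytic subunits, PSME1 to PSME4, PSMF1, members past adjusted P in any fit, the 5 with the smallest P, the 3 with the largest and the 3 with the smallest spread, members removed by the filter, and partner genes with unadjusted P under 0.05; other members, and partner genes named for their slopes, were chosen after their values were seen. Alternatives covered test, scaling, filter, covariates and subsets of dogs. The marker score slopes, the fits without control_09 and some subset fits were chosen after seeing the data.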

Additional observations from a re-analysis of the deposited data

How the results depend on the processing

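No alternative moved a proteasome gene past adjustment between cases and controls: 0 members passed in each of 15 alternatives. The number of genes called in the whole table was less steady. Against 5 with edgeR, it was 84 with DESeq2, 28 without case_01 and control_03, 8 with the erythroid score as a covariate and 1 with at least 10 counts required in every dog. It was 0 with limma-voom, with the platelet score, in the high-small-RNA dogs alone and in the 21 others alone. Members at an unadjusted P under 0.05 numbered 1 with edgeR, 2 with upper quartile scaling, without a filter, with the small RNA covariate and without control_09 (4.76% to 4.88% of members beside 10.4%, 11.6%, 9.83% and 10.9% of all genes), 3 with limma-voom (7.32% of members, 11.2% of all genes), 4 with the platelet score (9.76% and 6.12%), 5 in the 21 other dogs (12.2% and 10.6%) and 5 without case_01 and control_03 (12.2% and 13%), and 0 with the erythroid score and in the high-small-RNA dogs. The 5 without case_01 and control_03 were PSMD8, PSMD9, PSMD10, PSME1 and PSMF1, and the 5 in the 21 other dogs PSMB6, PSMD9, PSMD10, PSME1 and PSMF1. Single log2 fold changes kept their sign in 15 of 15 alternatives for PSMA6, PSMB4, PSMB8 and PSME1. The sign turned in 7 of 15 for PSME2, in 3 each for PSME4 and PSMF1 and in 2 each for PSMB10 and PSME3. For PSMB5, PSMB6, PSMB7, PSMB9, PSMD9 and PSMD10 it turned in 1 each. With the platelet score PSMB5 moved from 0.15 to 0.29, PSMB7 from −0.036 to 0.039 and PSMB9 from −0.15 to 0.040, and in the high-small-RNA dogs PSMB6 moved from 0.051 to −0.25. Between the sexes 26 genes passed with DESeq2 and 17 with edgeR. The members lower in the high-small-RNA dogs fell from 7 to 2 without case_01 and control_03, and the erythroid slopes from 20 to 8 in cases, 13 in the high-small-RNA dogs and 11 in the 21 others. The members with a slope on the platelet score went from 10 to 4 without case_01 and control_03, and on the neutrophil score from 11 to 5. Of the 4 ratios, 0 passed with all dogs and 1 without case_01 and control_03. Of the 9 pairs, by Pearson's r, 3 passed with all dogs (4 by Spearman's rho), 5 without the 2 farthest dogs and 5 without control_09, and 3 on each side of the small RNA division. In the high-small-RNA dogs, which include control_03, PSME1 with PSME2 and PSMB9 with TAP1 gained a call, while PSMB8 with PSMB9 and PSMC1 with PSMC2 lost theirs. The correlation of PSMB9 with TAP1 turned from −0.020 to 0.55 without the 2 farthest dogs, 0.55 without control_09 and 0.84 in the high-small-RNA dogs. Apart from what the left-out dogs show, the cause was not tested. The planned pair of PSMA1 and PSMA2 could not be run, since neither symbol has a row.

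The numbers that cases and controls share do not mark pairs: over 13 such pairs the deviations from the group means correlated between −0.44 and 0.26, and 3 exceeded 0.1. With that number as a replicate block, 0 genes and 0 members passed adjustment, and 0 members had an unadjusted P under 0.05.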
